A study of Mus musculus with 6 samples.

Results

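Interleukins, their receptors and their natural antagonists were examined as 1 gene family in inguinal white adipose tissue (fat under the skin of the groin) of mice on a high-fat diet. The members were all gene symbols that begin with Il followed by a digit, which gave 84 of the 24984 listed genes. By role these were 37 ligands, 38 receptor chains, 6 antagonists or decoys, and 3 genes that are neither (Il4i1, Il4i1b and Il1bos). The study sequenced total RNA from 2 groups, wild type fed the high-fat diet (HFD, n = 3) and Mpst knockout fed the same diet (n = 3), so the diet is shared by every library and no group on another diet enters the comparison. Mpst encodes a sulfurtransferase that makes hydrogen sulfide. No source used here gives the strain, sex or age of the mice, or how the Mpst allele was made. The replicates carry numbers, but no label ties each one to its own mouse, so the p-values describe only how far these samples spread, which may be technical.

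Interleukins are secreted signals that mostly act between leukocytes and the tissue cells around them. IL-1, IL-18, IL-33 and the IL-36 proteins signal through paired receptor chains that recruit the adaptor MyD88, while most of the others act through receptors coupled to JAK kinases and STAT factors. Several families hold their own brakes: a receptor antagonist that occupies the receptor without signalling, decoy receptors without a signalling tail, and soluble binding proteins. In fat, macrophages, lymphocytes, stromal cells and adipocytes all carry interleukin receptors, and bulk RNA does not separate them. In such samples fewer cells of a type and less RNA per cell cannot be told apart.

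Facts of the whole series frame these values. The libraries held 8054560 to 22458630 counts in genes, with knockout replicate 1 the shallowest, and 55 to 63 members had at least 1 count in a library. Mpst had 1358 to 1624 counts in the wild-type libraries and 3 to 10 in the knockout libraries, matching the genotype labels. The 14 adipocyte genes of the marker list summed to 78291 to 88479 CPM (counts scaled to a common library size) in wild type and 56327 to 68471 in knockout, with Cfd and Retn the called genes of smallest p (log2 fold changes −2.06 and −0.98). The 17 macrophage genes summed to 970 to 1815 CPM in wild type and 2385 to 2630 in knockout, so those groups did not overlap. Skeletal muscle genes stood highest in wild-type replicate 2 (1081 CPM summed over 12 genes) and knockout replicate 3 (2565 CPM), against 48.8 to 163 CPM in the other libraries.

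Upstream sequence is shown for the members that passed the test, so that a reader can see what lies before these genes. Each stretch starts 250 bases before a RefSeq start and ends at that start or before the first annotated exon base, whichever comes first, which left all 250 bases for Il12b, Il1r1 and Il13ra1, 243 for Il1rn and 222 for Il17rc. RefSeq on GRCm38.p6 gave a start for 67 of the 84 members and for 7 of the 8 that passed, with none for Il10ra. For Il17re and Il7r the bases before the RefSeq start lie within exons of GENCODE M21, and they are not printed. Capitals mark matches, on either strand, to the motif letters TTCNNNGAA (STAT), TGANTCA (AP-1), GAGGAA (PU.1), TTGCNNAA (C/EBP) or to GGGA and CC with 4 bases of any kind between them (NF-kB).
The stretches lie at chr2:24336610-24336852 (Il1rn, the first of its 3 RefSeq starts), chr11:44399813-44400062 (Il12b), chr1:40224830-40225079 (Il1r1, the first of 2 starts), chrX:36111858-36112107 (Il13ra1) and chr6:113471205-113471426 (Il17rc), all on the plus strand.
Il1rn: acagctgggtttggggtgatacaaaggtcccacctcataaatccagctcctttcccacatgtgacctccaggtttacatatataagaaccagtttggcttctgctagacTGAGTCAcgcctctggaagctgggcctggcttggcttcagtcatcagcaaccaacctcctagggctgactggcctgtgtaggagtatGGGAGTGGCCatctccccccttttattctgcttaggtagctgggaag
Il12b: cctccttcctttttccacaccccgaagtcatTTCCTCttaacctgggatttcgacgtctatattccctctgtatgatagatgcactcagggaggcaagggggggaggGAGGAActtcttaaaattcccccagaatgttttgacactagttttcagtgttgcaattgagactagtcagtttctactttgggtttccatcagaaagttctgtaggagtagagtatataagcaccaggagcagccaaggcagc
Il1r1: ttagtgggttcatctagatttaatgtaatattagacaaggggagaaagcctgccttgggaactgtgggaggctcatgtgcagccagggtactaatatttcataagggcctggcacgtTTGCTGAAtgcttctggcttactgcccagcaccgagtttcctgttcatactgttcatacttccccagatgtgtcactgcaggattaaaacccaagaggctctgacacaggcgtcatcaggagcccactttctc
Il13ra1: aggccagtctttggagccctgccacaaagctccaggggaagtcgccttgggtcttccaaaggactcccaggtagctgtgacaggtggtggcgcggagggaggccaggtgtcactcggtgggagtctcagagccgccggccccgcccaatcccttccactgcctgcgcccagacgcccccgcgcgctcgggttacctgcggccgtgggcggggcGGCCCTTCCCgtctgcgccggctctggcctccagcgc
Il17rc: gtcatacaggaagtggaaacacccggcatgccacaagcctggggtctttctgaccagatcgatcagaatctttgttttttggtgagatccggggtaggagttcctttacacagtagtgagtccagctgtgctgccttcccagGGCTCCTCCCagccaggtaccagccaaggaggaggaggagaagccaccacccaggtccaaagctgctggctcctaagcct
Il1rn held 1 AP-1 match, 141 bases before the start, and 1 NF-kB match. Il12b held 2 PU.1 matches, 219 and 143 bases before the start. Il1r1 held 1 C/EBP match, and Il13ra1 and Il17rc held 1 NF-kB match each. The other starts of Il1rn and Il1r1 held no match to any of the 5 motifs in the 250 bases before them. Among 27025 genes, taking 1 RefSeq start each, the 250 bases upstream held the STAT motif in 7.18%, AP-1 in 6.87%, PU.1 in 23.1%, C/EBP in 9.55% and NF-kB in 17.3%. No printed match overlaps another, and a match is a run of letters, not a binding site.

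Of the 8 members that changed, 6 were receptor chains, 1 an antagonist and 1 a ligand, and few ligands were abundant enough to test. Of the 84 members 40 passed the filter on low counts, and 8 of these passed edgeR's quasi-likelihood test at an adjusted p under 0.05, against 7.41% of all tested genes. Il1rn, Il7r, Il12b, Il13ra1, Il10ra and Il1r1 rose in the knockout (6 of 40, against 4.76% of all tested genes), and Il17re and Il17rc fell (2 of 40, against 2.65%). By role, 4 of 28 tested receptors rose and 2 fell, 1 of 8 tested ligands rose and none fell, and 1 of 4 tested antagonists or decoys rose and none fell. The median log2 fold change was 0.39 over the receptors, 0.02 over the ligands and 0.84 over the antagonists and decoys, beside 0.01 over all 14065 tested genes. The antagonists and decoys were only 4 genes, 2 positive and 2 negative, from −0.29 (Il1r2) to 2.87 (Il1rn), so their median describes no common shift. By direction alone, 28 tested members had a positive and 12 a negative log2 fold change, with a median of 0.29. The knockout libraries lay wholly above the wild-type libraries for 14 tested members (17.8% of all tested genes did) and wholly below for 4 (15.5%). At an unadjusted p under 0.05, 14 members were higher (14.9% of all tested genes were) and 4 were lower (12.7%). Among the tested members 37 reached the count minimum in all 6 libraries, while Il12b reached it in the knockout libraries alone, and Il13ra2 in all knockout but only 2 wild-type libraries. In a fit with no such filter 70 members had a value and the same 8 were called.

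The calls depended on which libraries were in the fit. Without wild-type replicate 3 edgeR called the same 8 members and Il1rap, and without wild-type replicate 1 it called 6 of the 8 (not Il12b or Il1r1). Without wild-type replicate 2, knockout replicate 2 or knockout replicate 3 in turn, it called 0 members, with 16, 13 and 13 at an unadjusted p under 0.05, and without knockout replicate 1 it called Il7r alone. Over all genes edgeR called 669 higher and 373 lower with all 6 libraries, and 538 and 263 without wild-type replicate 1. Without wild-type replicate 2 it called 0 higher and 1 lower over all genes, so that loss was not particular to these members. Without the 2 libraries highest in muscle transcripts, wild-type replicate 2 and knockout replicate 3, it called 0 members, with 10 at an unadjusted p under 0.05. When all libraries were thinned to the smallest total, 4 of the 8 were called (Il1rn, Il7r, Il13ra1 and Il17re). The groups did not overlap for any of the 8, which were picked by the test on these same values. Each log2 fold change kept its sign when 1 library at a time was left out. Groups without overlap all but fix that outcome in advance, so it adds no support. Il12b had no value without knockout replicate 2, where it did not pass the filter.

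**Figure D1:**
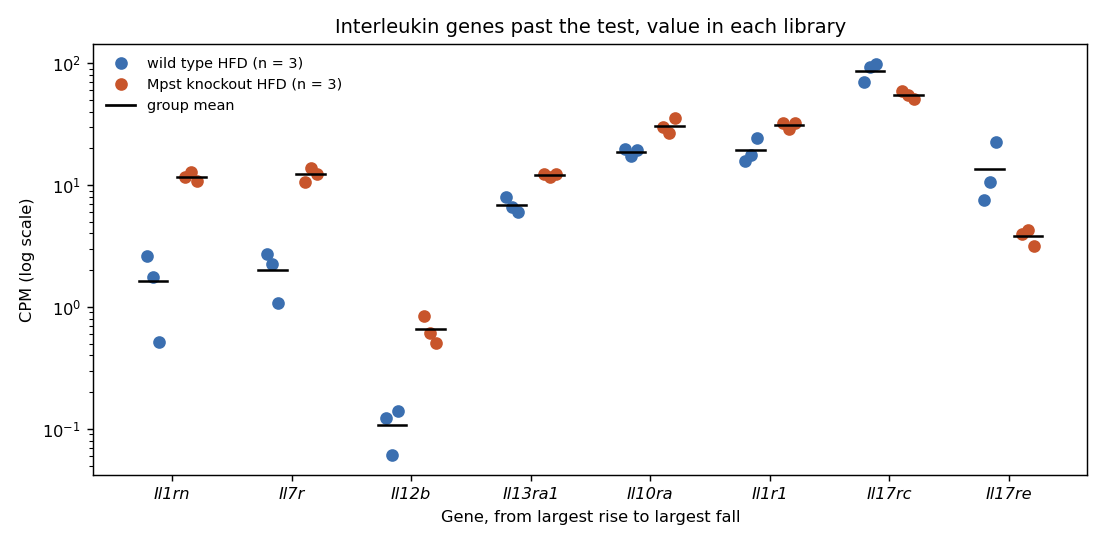
CPM on a log axis of the 8 interleukin genes past the adjusted p threshold, with 1 point per library (blue wild type, orange knockout) and a black line at each group mean. Il1rn and Il7r lie between 10.6 and 13.7 CPM in every knockout library and at or below 2.70 CPM in every wild-type library, and Il17re lies between 7.54 and 22.4 CPM in wild type and at or below 4.27 CPM in knockout.

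In the IL-1 family the receptor antagonist rose most and the signalling receptor rose with it, while the decoy receptor did not pass. Il1rn encodes IL-1 receptor antagonist, which binds IL-1 receptor 1 without signalling. It stood at 2.64, 1.76 and 0.511 CPM in the wild-type libraries and at 11.6, 12.7 and 10.8 CPM in the knockout libraries. No knockout library came near the highest wild-type library. The means were 1.64 ± 1.07 and 11.7 ± 0.976 CPM (SD, n = 3), a 7.29-fold rise (log2 fold change 2.87, SE 0.44, adjusted p = 0.0154). Il1rn (ENSMUSG00000026981.15) lies on chromosome 2 from 24336853 to 24351494, and counts per gene do not tell its secreted and intracellular forms apart.

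Il1r1, the receptor through which IL-1 alpha and IL-1 beta signal, stood at 15.8, 17.6 and 24.4 CPM in wild type and 32.3, 28.9 and 32.5 CPM in knockout. Its lowest knockout library lay above the highest wild-type library, wild-type replicate 3. The gene rose 1.62-fold (log2 fold change 0.69, SE 0.17, adjusted p = 0.0469). Il1r2, the decoy receptor that binds IL-1 without signalling, stood at 3.74, 5.23 and 3.25 CPM in wild type and 4.17, 2.68 and 3.27 CPM in knockout. Those groups overlapped and the gene did not pass (log2 fold change −0.29, SE 0.28, adjusted p = 0.540).

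Il1rap, the accessory chain shared by the IL-1, IL-33 and IL-36 receptors, stood at 3.37, 2.25 and 3.58 CPM against 4.89, 5.55 and 4.84 CPM and did not pass (log2 fold change 0.73, SE 0.25, adjusted p = 0.101). Il1rl1, the IL-33 receptor ST2, stood at 5.64, 5.71 and 5.01 CPM against 7.39, 7.31 and 9.76 CPM (0.59, SE 0.20, adjusted p = 0.0989). Both genes lay higher in each knockout library than in any wild-type library but missed the threshold over all genes. Il18r1, the ligand-binding chain for IL-18, stood at 1.96, 1.28 and 1.90 CPM against 2.27, 2.82 and 2.97 CPM (0.66, SE 0.29, adjusted p = 0.174). Il18rap, its accessory chain, stood at 1.53, 2.31 and 2.18 CPM against 2.62, 3.61 and 3.65 CPM (0.73, SE 0.28, adjusted p = 0.131). For both IL-18 receptor chains the knockout libraries also lay above all wild-type libraries. Il1rl2, the IL-36 receptor, stood at 9.84 ± 1.60 CPM against 10.3 ± 1.20 CPM, with overlapping libraries.

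The IL-1 family ligands were low and did not pass. Il33, an alarmin of stromal and endothelial nuclei, stood at 2.76, 1.76 and 1.53 CPM against 3.70, 1.89 and 2.29 CPM. Il18, released after caspase-1 cleavage, stood at 4.84, 5.05 and 7.38 CPM against 3.93, 4.05 and 5.05 CPM. Their log2 fold changes were 0.34 (SE 0.36) and −0.40 (SE 0.24), and the libraries of both genes overlapped between the groups. Il18bp, the soluble protein that neutralises IL-18, stood at 7.42, 6.75 and 8.91 CPM against 5.48, 8.01 and 9.21 CPM (log2 fold change −0.01, SE 0.23), which also overlapped.

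Of the 6 receptor genes of this family with tested values, 5 sit with the decoy Il1r2 in a cluster on chromosome 1, all on the plus strand, with starts from 40074079 (Il1r2) to 40515362 (Il18rap) on GRCm38. The log2 fold changes along it were −0.29 for Il1r2, 0.69 for Il1r1, 0.07 for Il1rl2, 0.59 for Il1rl1, 0.66 for Il18r1 and 0.73 for Il18rap. Within these 441 kb the non-called Il1r2 and Il1rl2 thus flank Il1r1, the only gene of the cluster that passed. Differences between these genes were tested only for Il1r2 against Il1r1, as the ratio given further on.

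**Figure D2:**
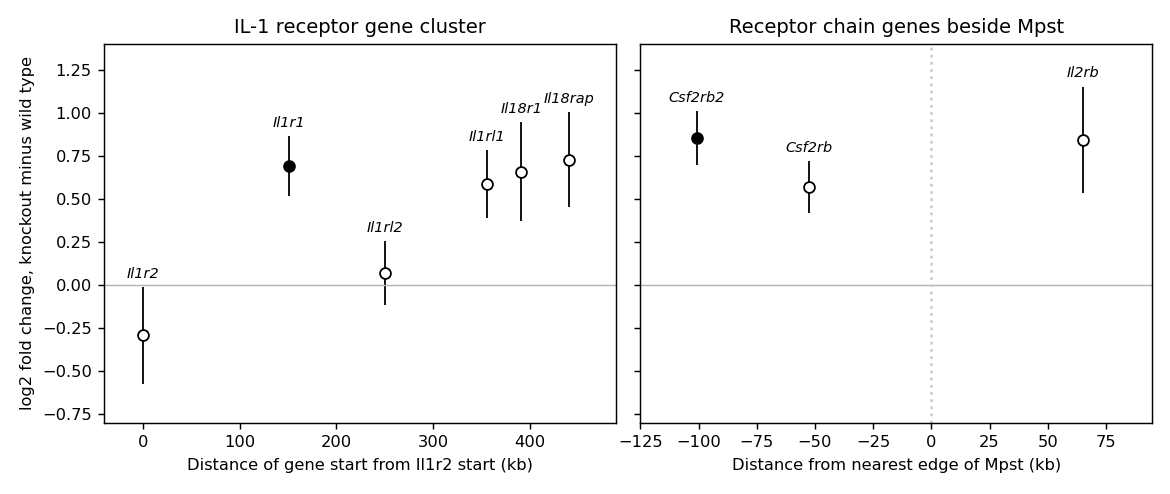
Log2 fold change (knockout minus wild type, bars SE) against distance in kb for the IL-1 receptor cluster (left) and for receptor chain genes beside Mpst (right), filled points having an adjusted p under 0.05. On the left Il1r1 is filled at 0.69 and Il1r2 lies at −0.29. On the right Csf2rb2 is filled at 0.86, with Csf2rb at 0.57 and Il2rb at 0.84.

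Receptors that use or adjoin the common gamma chain held the second large rise. Il7r encodes the IL-7 receptor alpha chain, best known from lymphocytes and also part of the receptor for TSLP. It stood at 2.70, 2.25 and 1.07 CPM in wild type and 10.6, 13.7 and 12.3 CPM in knockout, with no overlap. The means were 2.0 ± 0.842 and 12.2 ± 1.56 CPM (SD, n = 3), a 6.19-fold rise (log2 fold change 2.63, SE 0.32, adjusted p = 0.0119). The 15 listed T cell genes summed to 35.2 to 40.5 CPM in wild type and to 40.2, 60.7 and 81.2 CPM in knockout replicates 1, 2 and 3. In knockout replicate 1, where Il7r stood at 10.6 CPM, that sum lay within the wild-type range. Of 14 tested T cell genes edgeR called 0, with 8 at an unadjusted p under 0.05, while DESeq2 called 3 and limma-voom 0. Macrophage genes rose in 8 of 17, and the part of either cell type in the rise of Il7r was not tested.

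Il13ra1, the chain that pairs with IL-4 receptor alpha to bind IL-13 and IL-4, stood at 7.91, 6.57 and 5.99 CPM against 12.4, 11.6 and 12.2 CPM. All knockout libraries lay above all wild-type libraries (1.77-fold, log2 fold change 0.82, SE 0.17, adjusted p = 0.0311). Its partner Il4ra stood at 59.1, 57.4 and 59.5 CPM against 61.0, 68.9 and 58.7 CPM, which overlapped and did not pass (log2 fold change 0.10, SE 0.11, adjusted p = 0.596). Il13ra2, a decoy that binds IL-13 with high affinity, stood at 1.29, 1.34 and 0.371 CPM against 4.89, 3.39 and 1.49 CPM. The lowest knockout library was close to the highest wild-type library, and the gene did not pass (log2 fold change 1.68, SE 0.56, adjusted p = 0.0947).

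Il2rg, the common gamma chain itself, stood at 21.8, 21.6 and 17.7 CPM against 26.5, 25.7 and 33.0 CPM without overlap, and did not pass (log2 fold change 0.48, SE 0.15, adjusted p = 0.0814). Il21r, the IL-21 receptor, stood at 1.04, 1.09 and 0.882 CPM against 1.07, 2.33 and 3.23 CPM, where knockout replicate 1 lay within the wild-type range (1.20, SE 0.40, adjusted p = 0.0964). Il2ra, the inducible chain of the IL-2 receptor, overlapped between the groups at 5.96 ± 1.75 and 7.24 ± 0.225 CPM. The ligand Il7 stood at 3.83 ± 1.06 against 4.71 ± 0.638 CPM, and the ligand Il15 at 11.5, 14.95 and 12.2 against 10.7, 11.3 and 11.8 CPM. Il15ra, which presents IL-15 on the cell surface, stood at 31.3, 35.2 and 63.4 CPM against 40.7, 39.5 and 44.1 CPM, with wild-type replicate 3 far above the rest. Its log2 fold change was −0.07, and 0.32 without that library (adjusted p = 0.0912), and the groups overlapped for all 3 of these genes.

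Il2rb, the beta chain shared by the IL-2 and IL-15 receptors, lies 65243 bases from Mpst on chromosome 15 (78479256 to 78495271, minus strand). It stood at 2.45, 5.23 and 4.88 CPM in wild type and 5.48, 8.45 and 8.40 CPM in knockout. Knockout replicate 1 was only just above the highest wild-type library, and the gene did not pass (log2 fold change 0.84, SE 0.31, adjusted p = 0.120). On the other side of Mpst lies Csf2rb, the beta chain that IL-3, IL-5 and GM-CSF share, at 52569 bases. Its mouse-specific paralog Csf2rb2, a beta chain for IL-3 alone, lies at 100695 bases. Csf2rb2 rose from 18.4 ± 1.73 to 33.2 ± 5.64 CPM (log2 fold change 0.86, SE 0.16, adjusted p = 0.0223), while Csf2rb stood at 46.7 ± 5.03 and 69.2 ± 11.9 CPM (0.57, SE 0.15, adjusted p = 0.0531). Reads that match both paralogs make their counts uncertain. Every knockout library carries the altered Mpst locus, so the place of these genes beside it and the genotype cannot be told apart here.

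The alpha chain that pairs with those beta chains for IL-3, Il3ra, did not pass. It stood at 65.9, 53.8 and 32.7 CPM in wild type and 44.1, 48.4 and 29.8 CPM in knockout, with overlap (log2 fold change −0.32, SE 0.26, adjusted p = 0.469). Il5ra had 0 counts in the wild-type libraries against 0, 1 and 1. The ligand Il3 had 0 counts in all 6 libraries, where 3 counts would stand for 0.127 to 0.358 CPM, and Il5 had at most 5 counts in a library.

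None of the 3 tested IL-6 family receptors passed. Il6st, the signal-transducing chain gp130, stood at 158, 188 and 177 CPM in wild type and 185, 172 and 176 CPM in the knockout libraries (log2 fold change 0.03, SE 0.12, adjusted p = 0.906). The groups overlapped and differed by less than the spread between libraries. Il6ra, the ligand-binding chain for IL-6, stood at 3.06, 3.59 and 6.08 CPM against 4.41, 4.27 and 7.30 CPM, also overlapping. Il11ra1, the IL-11 receptor, stood at 126, 125 and 125 CPM against 103, 101 and 73.3 CPM. All knockout libraries were lower, most so knockout replicate 3, and the gene did not pass (log2 fold change −0.44, SE 0.15, adjusted p = 0.0938). Its near-identical copy Il11ra2 had 0 counts in every library, and how reads that match both copies were counted is not given.

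In the IL-12 family the shared p40 subunit rose from a very low level. The gene, Il12b, reached the count minimum in the knockout libraries alone, so it entered the test only through the group where it was high. Its p-value carries that limit. Il12b, which forms IL-12 and IL-23 with different partners, was counted 2, 1 and 3 times in the wild-type libraries and 7, 14 and 12 times in the knockout libraries. At 0.123, 0.0608 and 0.139 CPM against 0.835, 0.616 and 0.509 CPM the groups did not overlap (5.39-fold, log2 fold change 2.43, SE 0.53, adjusted p = 0.0335). DESeq2 gave no adjusted p for this gene, limma-voom called it, and the gene dropped below the filter when the libraries were thinned. The partners Il12a and Il23a had at most 4 and 3 counts in a library. The receptor chains Il27ra and Il12rb1 stood at 5.66 ± 1.21 against 7.64 ± 1.45 CPM and 0.532 ± 0.182 against 0.672 ± 0.395 CPM and did not pass. Dendritic cell genes summed to 35.5 to 70.1 CPM in wild type and 80.0 to 87.9 in knockout. The largest part of the knockout sum was 1 gene, Itgax (12.8 ± 7.12 and 41.1 ± 7.18 CPM). The list did not move 1 way, with 5 of 9 genes positive. Of the dendritic cell genes edgeR called 0 of 9 (2 at an unadjusted p under 0.05) and DESeq2 and limma-voom 1 each. Their part in the rise of Il12b was not tested.

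Among IL-10 family receptors the ligand-binding chain for IL-10 rose. Il10ra, expressed on leukocytes, stood at 19.8, 17.3 and 19.3 CPM in wild type and 29.7, 26.5 and 35.7 CPM in knockout, without overlap (1.63-fold, log2 fold change 0.70, SE 0.15, adjusted p = 0.0307). Il10rb, the broadly expressed second chain, stood at 51.3, 59.8 and 62.0 CPM against 66.4, 73.0 and 67.7 CPM. Its knockout libraries were all higher, by a smaller step, and it did not pass (0.26, SE 0.12, adjusted p = 0.191). Il20rb, a chain of the IL-20 and IL-24 receptors, overlapped at 4.58 ± 1.0 and 6.66 ± 1.83 CPM. The ligand Il10 had 5, 3 and 7 counts against 4, 15 and 12, too few to pass the filter.

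The 2 members that fell were both IL-17 receptors. Il17re, which pairs with IL-17RA to bind IL-17C, stood at 7.54, 10.5 and 22.4 CPM in wild type and 3.93, 4.27 and 3.14 CPM in knockout. Wild-type replicate 3 stood far above the other wild-type libraries, and all wild-type libraries lay above all knockout libraries. The gene was 3.59-fold lower (log2 fold change −1.84, SE 0.39, adjusted p = 0.0311), and without wild-type replicate 3 the log2 fold change was −1.25. With limma-voom it did not pass (log2 fold change −1.75, adjusted p = 0.0518). IL-17RE is best known from epithelium. Of 16 listed mammary and other epithelial genes 3 were tested, and edgeR, DESeq2 and limma-voom called 0, with 0 at an unadjusted p under 0.05. Krt14 and Csn3 had 0 counts everywhere, and the list summed to 16.9 to 20.5 CPM in wild type and 20.1 to 23.5 in knockout. Most of that sum was 1 gene, Trps1. Adipocyte genes fell in 3 of 14 and rose in none. The part of epithelial cells or adipocytes in the fall of Il17re was not tested.

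Il17rc, the chain that pairs with IL-17RA for IL-17A and IL-17F, stood at 69.5, 92.0 and 99.0 CPM against 59.1, 54.8 and 50.6 CPM, without overlap. It was 1.59-fold lower (log2 fold change −0.66, SE 0.15, adjusted p = 0.0368). Il17re and Il17rc are neighbours on the plus strand of chromosome 6. Il17re runs from 113458484 to 113470758 and Il17rc from 113471427 to 113483140, with 668 bases between them, so the printed Il17rc sequence lies in that gap. Their annotated exons do not overlap each other or another gene.

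Il17ra, the chain shared by these receptors, did not pass. It stood at 14.0, 14.3 and 13.8 CPM in wild type and 14.5, 13.5 and 14.2 CPM in knockout, the smallest log2 fold change of any tested member (0.00, SE 0.13, adjusted p = 0.992). Il17rb, which binds IL-25 and IL-17B, stood at 1.65, 3.04 and 6.96 CPM against 1.91, 1.80 and 2.84 CPM, where wild-type replicate 3 again stood above the rest (log2 fold change −0.83, SE 0.49, adjusted p = 0.306, and −0.08 without that library). Il17rd, an inhibitor of growth factor signalling as well as an IL-17 receptor homolog, stood at 7.25 ± 0.289 and 8.02 ± 1.66 CPM. The ligand Il17d stood at 17.7, 18.0 and 10.9 CPM against 15.6, 15.8 and 14.8 CPM, while Il17a, Il17f and Il25 had at most 1 count in a library.

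Il34, a second ligand of the CSF-1 receptor that supports tissue macrophages, was the most abundant ligand. It stood at 41.0, 49.6 and 48.6 CPM in wild type and 35.2, 33.0 and 35.6 CPM in knockout. All knockout libraries were lower, and the gene missed the threshold (log2 fold change −0.42, SE 0.12, adjusted p = 0.0645) that it passed with DESeq2. Its exons overlap those of 2 other annotated genes, and the libraries do not mark strand. Exons of 13 tested members overlap another annotated gene, among them Il34, Il11ra1, Il10rb and Il3ra, and of the called members 0. Il16, a chemoattractant cut from a larger scaffold protein, stood at 30.0 ± 1.13 and 30.9 ± 6.17 CPM.

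**Figure D3:**
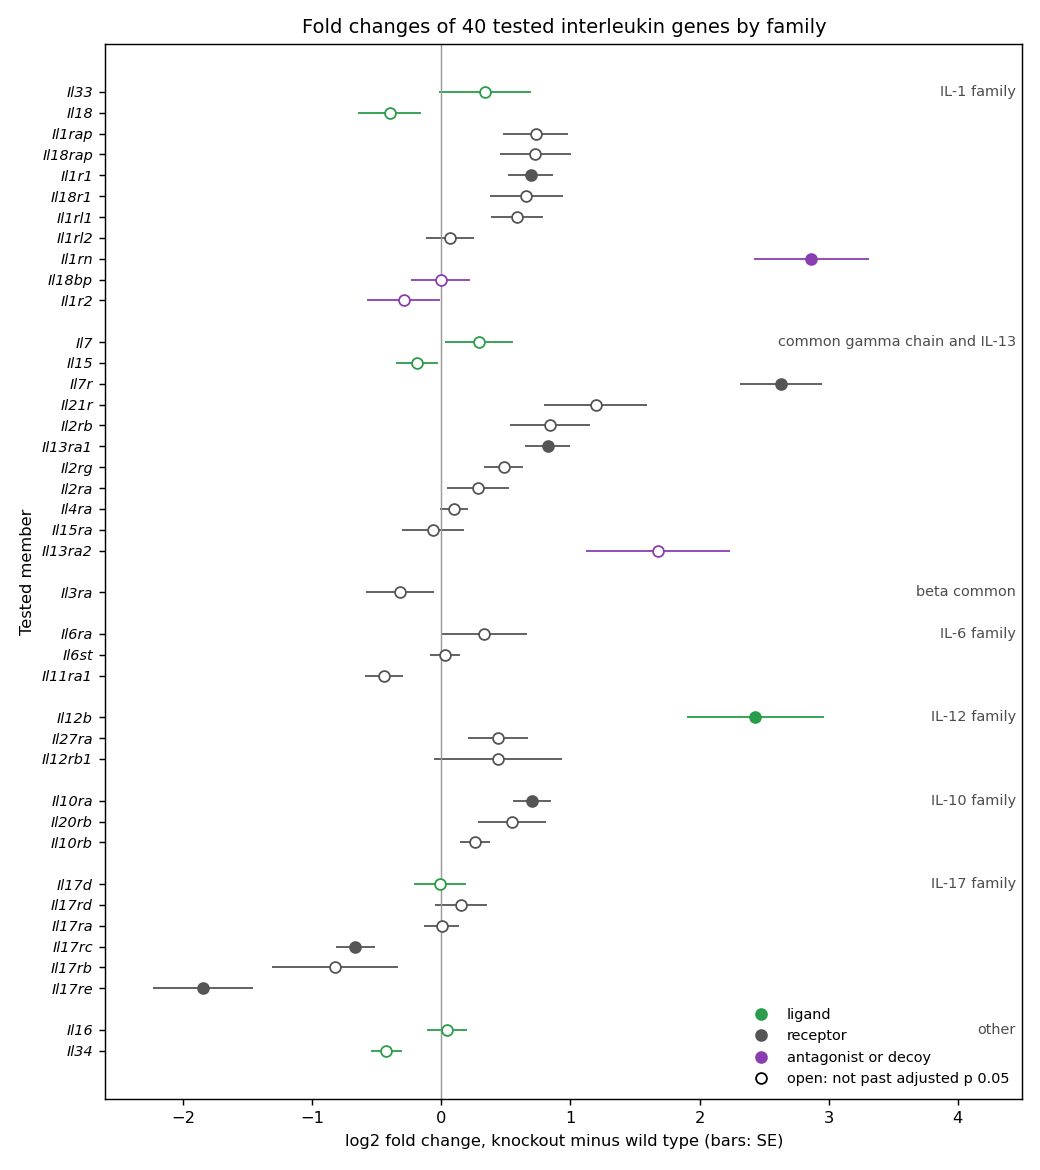
Log2 fold change (x axis, knockout minus wild type, bars SE) of the 40 tested members, grouped by family and coloured by role (green ligand, grey receptor, purple antagonist or decoy), filled where the adjusted p was under 0.05. Il1rn (2.87), Il7r (2.63) and Il12b (2.43) lie farthest right, and Il17re (−1.84) farthest left.

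Set per kilobase of annotated exon (RPKM, the CPM value divided by exon length), the most abundant members were Il17rc, Il11ra1, Il34, Il10rb, Il6st and Il3ra. In wild type Il17rc led at 32.5 ± 5.77 RPKM, then Il11ra1 at 28.0 ± 0.192 and Il34 at 23.7 ± 2.40. The knockout levels of these were 20.5 ± 1.60, 20.7 ± 3.71 and 17.7 ± 0.702 RPKM, and in neither group did Il17rc and Il11ra1 differ beyond their spread. Il10rb (15.2 ± 1.49 and 18.1 ± 0.920 RPKM) and Il6st (15.7 ± 1.35 and 16 ± 0.596 RPKM) did not differ beyond their spread in wild type. The genes that rose most remained modest in level: Il7r reached 2.62 ± 0.335 RPKM, Il1rn 2.11 ± 0.176 and Il12b 0.332 ± 0.0843 in knockout, below Il1r1 at 4.91 ± 0.319 and Il10ra at 8.75 ± 1.34.

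Most ligands were near the limit of detection in both groups. Of the 37 ligands 26 had at least 1 count and 11 had 0 counts in all 6 libraries, namely Il3, Il9, Il20, Il21, Il22, Il24, Il31 and 4 IL-1 family genes (Il1f6, Il1f8, Il1f9 and Il1f10). Il1b, the main secreted IL-1, had 13, 2 and 8 counts in the wild-type libraries against 4, 16 and 5, and Il1a had 0, 3 and 0 against 0, 6 and 1. Il6, a cytokine known from inflamed fat, had 0, 0 and 1 counts against 1, 1 and 2. Il13, a type 2 cytokine, had 8, 4 and 1 against 0, 6 and 5, and Il4 had 3, 1 and 2 against 1, 1 and 1. No difference in these ligands was detectable at this depth. Il2, Il11, Il17b, Il17c, Il19 and Il27 were likewise untested, with Il27, a partner-built relative of IL-12, at 3, 6 and 8 against 4, 8 and 10 counts. The 10 untested receptor chains (Il5ra, Il9r, Il11ra2, Il12rb2, Il20ra, Il22ra1, Il23r, Il31ra, Il1rapl1 and Il1rapl2) had at most 11 counts in a library. Of the antagonists, Il1f5 was at 0, and Il22ra2, a soluble decoy for IL-22, had 1, 5 and 15 against 1, 6 and 5 counts. Il4i1, Il4i1b and Il1bos, which are neither ligand nor receptor, had at most 5 counts in a library, and Il1bos lies antisense to Il1b. In the fit without a filter on low counts 30 further members had a value, 0 were called by edgeR and 0 had an unadjusted p under 0.05, with adjusted p from 0.283 upward (Il12a 0.283, Il10 0.298, Il1b 0.946). No other tool was run without the filter.

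**Figure D4:**
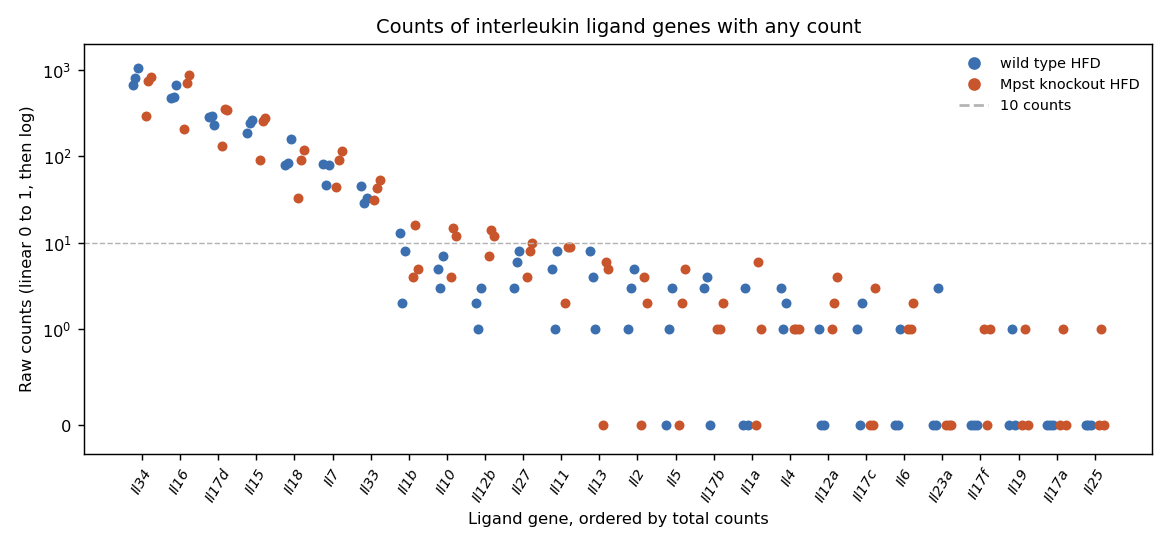
Raw counts (y axis, linear from 0 to 1 and then logarithmic) of the 26 ligand genes with any count, 1 point per library (blue wild type, orange knockout), ordered by total counts, with a dashed line at 10 counts. Il34, Il16, Il17d, Il15, Il18, Il7 and Il33 lie above the line in every library, and Il1b, Il10 and Il12b straddle it.

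Ratios within a library do not depend on scaling, and 7 pairs of antagonist, decoy or partner and its target were compared. With 3 against 3 libraries the exact two-sided permutation test cannot go below p = 0.1, so none could pass. The log2 ratio of Il1rn to the summed Il1a and Il1b counts was 1.69, 2.42 and 0.44 for wild type against 4.44, 3.69 and 5.29 for knockout. All knockout libraries had the higher ratio, by 2.96 on average (exact permutation p = 0.1, 0.35 after Benjamini-Hochberg adjustment over the 7 ratios). The denominator was 4 to 22 counts, so the size of this ratio is imprecise. The log2 ratio of the decoy Il1r2 to the receptor Il1r1 was −2.07, −1.75 and −2.90 against −2.94, −3.42 and −3.30. It was lower in each knockout library, with a mean difference of −0.98 (exact permutation p = 0.1, adjusted 0.35), and wild-type replicate 3 came within 0.1 of the nearest knockout library.

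The other 5 ratios overlapped between the groups. The mean log2 ratio of Il18bp to Il18 was 0.43 ± 0.17 in wild type and 0.77 ± 0.27 in knockout (SD, n = 3, exact permutation p = 0.2). For Il13ra2 to Il13ra1 it was −2.93 ± 0.88 and −2.04 ± 0.88 (n = 3, exact permutation p = 0.3), and for Il6st to Il6ra 5.41 ± 0.48 and 5.10 ± 0.44 (n = 3, exact permutation p = 0.5). Il1rl1 to Il33 and Il15ra to Il15 differed by 0.20 and 0.19 on average (exact permutation p = 0.6 and 0.7). Adjusted values over the 7 ratios were 0.467 to 0.7 for these 5. As a share of all member counts, antagonists and decoys made up 1.49% to 1.81% in wild type and 2.87% to 3.04% in knockout, and ligands 12.8% to 13.8% and 11.5% to 13.2%. Most of the difference in the antagonist share came from 1 gene, Il1rn, with 43, 29 and 11 counts in wild type against 97, 289 and 254 in knockout.

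**Figure D5:**
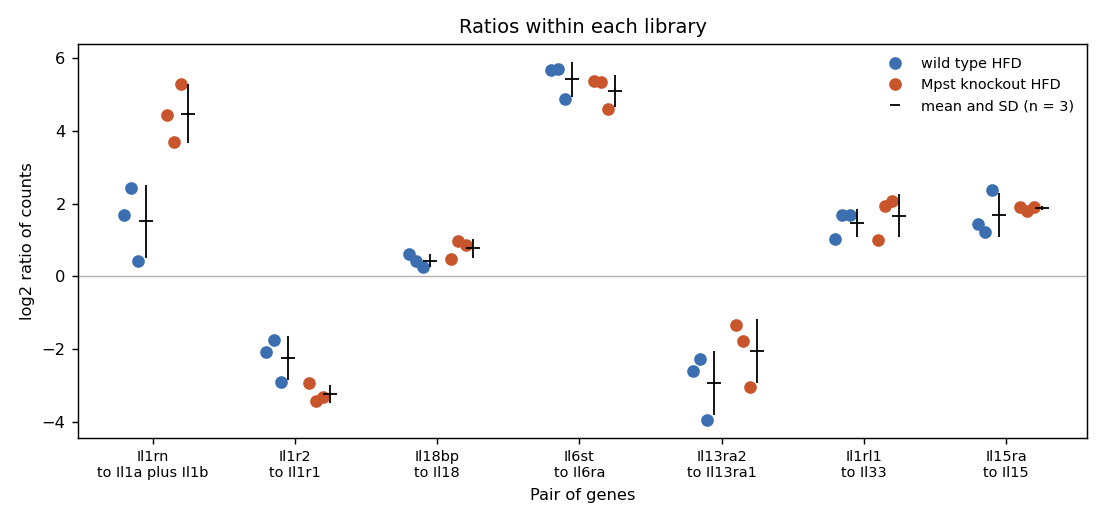
Log2 ratio of counts within each library for 7 pairs of genes, 1 point per library (blue wild type, orange knockout), with mean and SD beside each group. Il1rn to Il1a plus Il1b lies at 3.69 or more in knockout and at 2.42 or less in wild type, Il1r2 to Il1r1 is the other pair whose groups do not overlap, and the 5 remaining pairs overlap.

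Among kin cytokines and partner chains whose symbols do not begin with Il, 2 of 16 tested genes rose and 1 fell, with a median log2 fold change of 0.34. At an unadjusted p under 0.05 in edgeR stood 9 of the 16. Csf2ra, the alpha chain of the GM-CSF receptor, rose from 25.1 ± 0.878 to 51.2 ± 14.4 CPM (log2 change 1.03, adjusted p = 0.0222). The other gene that rose was Csf2rb2, the IL-3 beta chain given above. Ctf1, which encodes the IL-6 family cytokine cardiotrophin 1, fell from 8.05 ± 2.92 to 3.40 ± 0.524 CPM (−1.27, adjusted p = 0.0395).

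Of 24 JAK, STAT and SOCS pathway genes 2 rose and none fell (median 0.04). The list was not flat, with 8 of 24 at an unadjusted p under 0.05 in edgeR (14.9% of all tested genes were higher and 12.7% lower at that level). Ptpn6, Socs5, Stat4, Socs6 and Jak1 were higher, and Cish, Stat5a and Socs1 were lower. Ptpn6, the phosphatase SHP-1, rose with a log2 change of 0.82 (adjusted p = 0.0467), and Socs5, a suppressor of cytokine signalling, with 0.58 (adjusted p = 0.0474). Cish, a feedback inhibitor induced by STAT5 and named here after its values were seen, stood at 28.7 ± 20.8 and 4.34 ± 0.941 CPM and did not pass (−2.70, adjusted p = 0.0712). Of 16 adaptors and regulators downstream of IL-1 and IL-17 receptors 2 rose and none fell (median 0.03). Those were Tnip1 (54.7 ± 6.66 against 127 ± 27.1 CPM, log2 change 1.22, adjusted p = 0.0149) and Tnfaip3 (0.78, adjusted p = 0.0284), both inhibitors of NF-kB signalling.

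Of 9 tested proteases and inflammasome genes that process cytokines 2 rose and 1 fell (median 0.47). Casp1, which cleaves IL-1 beta and IL-18, rose from 18.8 ± 3.89 to 38.1 ± 1.68 CPM (1.02, adjusted p = 0.0156). Prtn3, a serine protease of neutrophils, fell with a log2 change of −2.05 (adjusted p = 0.0315). The third gene called was Adam17, a sheddase of IL-6 receptor, at 0.53 (adjusted p = 0.0354), named after its values were seen. Of 11 tested genes known to respond to IL-4 and IL-13 only Mrc1, a mannose receptor that also stands in the macrophage list, was called (0.88, adjusted p = 0.0335). The list had a median of −0.10 but was not flat, with 5 of 11 at an unadjusted p under 0.05 in edgeR. These were Mrc1, Ccl22, Clec10a and Arg1, which were higher, and Retnla, which was lower.

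Marker lists of other cell types were measured in the same libraries. The macrophage genes that rose had Itgam and Msr1 at the smallest p (log2 fold changes 1.55 and 1.5) and the list a median of 0.79. Mast cell and eosinophil genes summed to 37.1 to 45.7 CPM in wild type and 63.2 to 64.6 in knockout, and Epx was at 0. The largest part of the sum was 1 gene, Kit (15.1 ± 5.88 and 26.7 ± 6.13 CPM), which also stands in the NK and innate lymphoid list. All 6 tested genes were positive. Of the mast cell and eosinophil genes edgeR called 0 of 6 (2 at an unadjusted p under 0.05), DESeq2 1 and limma-voom 0. NK and innate lymphoid genes summed to 147 to 161 and 169 to 213 CPM. Of these edgeR called 0 of 12 (8 at an unadjusted p under 0.05), DESeq2 4 and limma-voom 1. B cell genes overlapped between the groups, with Cd22 the 1 of 8 tested that rose (2.1, adjusted p = 0.0370). Mesenchymal progenitor genes summed to 3244 to 4422 and 5005 to 6024 CPM, and 3 of 12 rose, among them Dcn (0.76) and Lum (1.48). The third, Col3a1, was the largest part of the sum (1748 ± 230 and 2890 ± 436 CPM). The genes did not all move 1 way: the median was 0.22, with 8 of 12 positive. Pi16, named after its values were seen, stood at 103 ± 65.4 and 24.2 ± 9.44 CPM and did not pass (−2.10, adjusted p = 0.109). Neutrophil genes overlapped at 27.8 to 45.1 and 26.7 to 34.9 CPM, with Prtn3 the 1 of 4 tested that fell. Endothelial genes overlapped as well, with Vwf the 1 of 9 that rose (0.40). The part of any of these cell types in the changes of the interleukin genes was not tested, nor that of the muscle genes, of which edgeR, DESeq2 and limma-voom called 0 of 12 (0 at an unadjusted p under 0.05).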

How the data were processed

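RNA sequencing libraries were made from 3 wild-type and 3 Mpst knockout samples of inguinal white adipose tissue under a high-fat diet. Per the labels' protocols they were TruSeq RNA v2 libraries, which do not mark strand, read single-end. The submitters' processing notes name HISAT2 2.1.0, HTSeq 0.13.5, DESeq2 1.26 and build mm10. The annotation and the counting settings: not given in the sources used here. What the authors deposited are raw counts per gene symbol. The summary lines that close each deposited file were left out, of which reads assigned to no feature made up 8.85% to 14.7% of uniquely placed reads and ambiguous reads 1.63% to 1.83%. Library totals ranged from 8054560 to 22458630 counts, which limits precision most in knockout replicate 1.

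The counts went into edgeR 4.0.16 (R 4.3.3): filterByExpr (14065 genes kept), TMM scaling and a robust quasi-likelihood F test of genotype over all 6 libraries, with Benjamini-Hochberg adjustment over all tested genes and calls under 0.05. The SE was taken from the fold change and its F statistic. Ratios used counts plus 0.5 and exact permutation tests. Exon lengths and positions came from GENCODE M21 on GRCm38 (83 of 84 members matched by symbol), upstream sequences from RefSeq on GRCm38.p6. The fit was tested on simulated data. Members, families and lists were chosen with earlier results of these data known, and the motifs and the rule for printing upstream sequence after the results were seen. Values per library are given for each called member, each member under an unadjusted p of 0.05 and a fixed set of main cytokines and receptors, and from each list the 2 called genes with the smallest p are named. Alternatives were RLE size factors, DESeq2 1.42.0, limma-voom (limma 3.58.1), other filters, thinning, the replicate number as a block and leaving out each library. Leaving out the 2 libraries highest in muscle transcripts was added after seeing the data.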

Additional observations from a re-analysis of the deposited data

How the results depend on the processing

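Removing 1 library at a time, the interleukin genes called higher ranged from 0 to 7 and those called lower from 0 to 2, with 0 to 1434 and 1 to 1167 over all genes. Without the 2 muscle-high libraries they were 0 and 0, with 0 and 1 over all genes. Thinning gave 3 higher and 1 lower (445 and 232 over all genes), a mean of at least 10 CPM gave 2 and 1 with 16 members tested, and limma-voom 1 lower, losing Il17re. DESeq2 called 9 members, adding Il13ra2 and Il34 and giving Il12b no adjusted p, with 1074 higher and 894 lower genes. RLE size factors and no filter kept the same 8 members.

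The replicate block called 8 members higher and 4 lower (1387 and 1289 over all genes), adding Il11ra1, Il13ra2, Il2rb and Il34. Libraries with the same number deviated together by correlations of 0.17, −0.10 and 0.30, so the numbers do not show pairs, and not every library correlated best with its own number.

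Among members that did not pass, signs turned as follows, and the cause was not tested. Il17ra was −0.012 with RLE size factors, −0.014 with DESeq2 and −0.0035 with limma-voom. Il17d was 0.047 with limma-voom, 0.0093 with a mean of at least 10 CPM, 0.027 with the replicate block, 0.23 thinned and 0.14 without the muscle-high libraries. Il18bp was 0.025 with limma-voom and 0.039 thinned. Thinned, Il17rd was −0.17 and Il1rl2 −0.27, and without the muscle-high libraries they were −0.030 and −0.15, Il16 −0.12 and Il6ra −0.087. Leaving out 1 library or the muscle-high pair gave ranges of −0.25 to 0.32 (Il15ra), −0.12 to 0.18 (Il16), −0.21 to 0.14 (Il17d), −0.020 to 0.032 (Il17ra), −0.039 to 0.24 (Il17rd), −0.26 to 0.16 (Il18bp), −0.15 to 0.18 (Il1rl2), −0.087 to 0.70 (Il6ra) and −0.032 to 0.090 (Il6st). The ratios of Il1rl1 to Il33 and of Il15ra to Il15 ranged from −0.019 to 0.54 and −0.038 to 0.54. At this depth 29 of 37 ligands, 10 of 38 receptors, 2 of 6 antagonists or decoys and all 3 other members were too low to test.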
